A study of Homo sapiens with 12 samples.

Results

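The interferon regulatory factors (IRFs) are a family of DNA-binding proteins, and 8 of its genes were followed here: IRF1, IRF2, IRF3, IRF4, IRF5, IRF7, IRF8 and IRF9. They were picked by gene symbol, with earlier results of these data known, and make up 8 of the 40173 gene IDs in the expression table. RNA came from the established human melanoma line 624Mel. Cells were reverse transfected with a non-targeting siRNA (siCTRL) or an siRNA that targets MITF (siMITF), MITF being the transcription factor that runs the melanocyte programme. After a further 24 h each was left without cytokine or given 5 ng/mL recombinant IFNγ for 24 h. That gave 4 conditions (siCTRL, siCTRL + IFNγ, siMITF and siMITF + IFNγ) with 3 RNA-seq libraries each, and all of them, controls included, went through the transfection. MITF was targeted with 1 siRNA in 1 cell line.

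IRF proteins share a DNA-binding domain at the amino end that reads repeats of a GAAA core. IRF1 is made on demand after IFNγ, through a gamma-activated site (GAS) in its promoter, and it then drives antigen presentation genes. IRF2 sits on many of the same sites and is known mostly as a counterpart that dampens IRF1. IRF9 is the DNA-binding part of ISGF3, the complex that type I interferons use. IRF3, IRF5 and IRF7 are switched on by phosphorylation downstream of nucleic acid and Toll-like receptors, and IRF4 and IRF8 are best known from lymphoid and myeloid cells. IRF4 is also expressed in melanocytes, where it works with MITF at the gene for tyrosinase.

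Expression was given as TPM (transcripts per a fixed total of transcripts), a level corrected for transcript length, so levels of different genes can be set side by side. The knockdown was visible in the target itself. MITF lay between 158 and 246 TPM in the 6 siCTRL libraries and between 36.0 and 55.05 TPM in the 6 siMITF libraries, with no overlap. The libraries each summed to 975336 to 982632 TPM, and 11850 to 12377 gene IDs reached 2 TPM in a library. Mitochondrial transcripts took 7.42% to 16.9% of the TPM, with overlapping ranges between conditions, and the read depth is unknown because TPM keep none. Within each replicate number the mitochondrial share was higher with IFNγ in both backgrounds. In replicates 1, 2 and 3 it was 14.2%, 7.42% and 14.8% in siCTRL and 16.9%, 8.45% and 15.7% in siCTRL + IFNγ libraries. In siMITF libraries it was 12.8%, 10.1% and 14.0%, and with IFNγ 16.9%, 12.7% and 16.1%. The melanocytic markers MLANA, PMEL, TYR, DCT and SOX10 summed to 5260 to 6994 TPM in siCTRL and 1373 to 1747 TPM in siMITF libraries, and all 5 passed as lower in siMITF cells, SOX10 without IFNγ no longer doing so when the minimum level for testing was dropped (adjusted p = 0.0802, limma). Of 8 immune cell markers, CD3E was listed at 0 throughout, PTPRC lay at 0.144 to 0.732 TPM, and the list without the lysosomal gene CD68 summed to 2.14 to 5.57 TPM. With CD68 the library sums ran from 26.03 TPM (siMITF + IFNγ) to 96.94 TPM (siCTRL + IFNγ). Mean CD68 was 71.5 TPM in siCTRL, 75.5 in siCTRL + IFNγ, 27.3 in siMITF and 30.5 TPM in siMITF + IFNγ cells. CD68 fell with siMITF alone (log2 difference -1.34, adjusted p = 0.000246, limma), whereas the marker LYZ rose (0.74, adjusted p = 7.81e-05). These are bulk RNA levels, in which fewer expressing cells and less RNA per cell cannot be told apart.

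Promoter sequences were available from RefSeq (GRCh38.p14) for 5 of the 8 genes, in 9 windows that each cover the 250 bases before an annotated transcript start. IRF2, IRF3 and IRF7 had no entry. Each window was searched on both strands for TTCNNNGAA (the GAS pattern), GAAANNGAAA (the core of an interferon-stimulated response element), AANNGAAA (a shorter IRF core, which every GAAANNGAAA match also contains) and CACGTG (the E-box that MITF is known to bind). Windows are shown for IRF1 and IRF9, which rose with IFNγ, for IRF8, which was listed above 0 in the IFNγ libraries alone, and for IRF4, which fell with siMITF. Capitals mark matches to any of these patterns, and each sequence runs 5′ to 3′ in the direction of transcription, ending 1 base before the start.
IRF1 (chr5:132490774-132491023, minus strand): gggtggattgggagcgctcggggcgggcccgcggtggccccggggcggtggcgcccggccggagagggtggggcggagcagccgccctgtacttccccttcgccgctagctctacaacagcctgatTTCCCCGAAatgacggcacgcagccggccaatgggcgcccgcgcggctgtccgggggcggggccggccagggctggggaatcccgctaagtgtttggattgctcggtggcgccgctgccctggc
IRF9 (chr14:24161015-24161264, plus strand): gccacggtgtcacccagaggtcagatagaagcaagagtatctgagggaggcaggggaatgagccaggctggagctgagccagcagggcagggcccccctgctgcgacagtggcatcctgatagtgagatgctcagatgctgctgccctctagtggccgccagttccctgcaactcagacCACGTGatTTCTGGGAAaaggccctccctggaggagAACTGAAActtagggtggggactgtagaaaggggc
IRF8 (chr16:85902580-85902829, plus strand): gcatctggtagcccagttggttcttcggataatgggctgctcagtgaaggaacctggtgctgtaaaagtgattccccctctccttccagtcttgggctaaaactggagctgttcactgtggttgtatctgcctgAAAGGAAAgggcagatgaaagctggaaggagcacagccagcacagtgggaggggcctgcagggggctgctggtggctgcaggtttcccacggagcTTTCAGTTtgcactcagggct
IRF4 (chr6:391502-391751, plus strand): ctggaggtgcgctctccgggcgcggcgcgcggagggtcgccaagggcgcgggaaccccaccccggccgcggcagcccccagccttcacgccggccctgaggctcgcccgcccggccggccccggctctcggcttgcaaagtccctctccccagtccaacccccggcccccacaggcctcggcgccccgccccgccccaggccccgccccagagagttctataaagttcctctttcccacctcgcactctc

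The GAS pattern was found in IRF1, at -124 to -116 from the start, and in IRF9, at -63 to -55, and in no printed or searched window of IRF4, IRF5 or IRF8. It was present in 6.57% of all 35116 promoter windows of that length. AANNGAAA was found in IRF9 at -35 to -28, in both IRF8 windows (in the printed window at -116 to -109 and, on the complementary strand, at -21 to -14, a site that both overlapping windows share) and in 1 of 4 IRF5 windows, against 20.3% of all windows. The E-box CACGTG was found in IRF9, at -71 to -66, against 6.35% of all windows, and no member window held GAAANNGAAA, which 3.02% of all windows did. The printed IRF4 window held none of the 4 patterns. Both IRF8 windows lie inside the annotated gene, which begins at position 85899116. The IRF1 window also lies inside its gene, which begins at 132508719 on the minus strand. All 4 IRF5 windows lie inside theirs, which begins at 128937457. The bases before those gene starts were not searched, so a GAS pattern there would have been missed. These matches describe letters in a short window and are not measured binding sites.

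**Figure D1:**
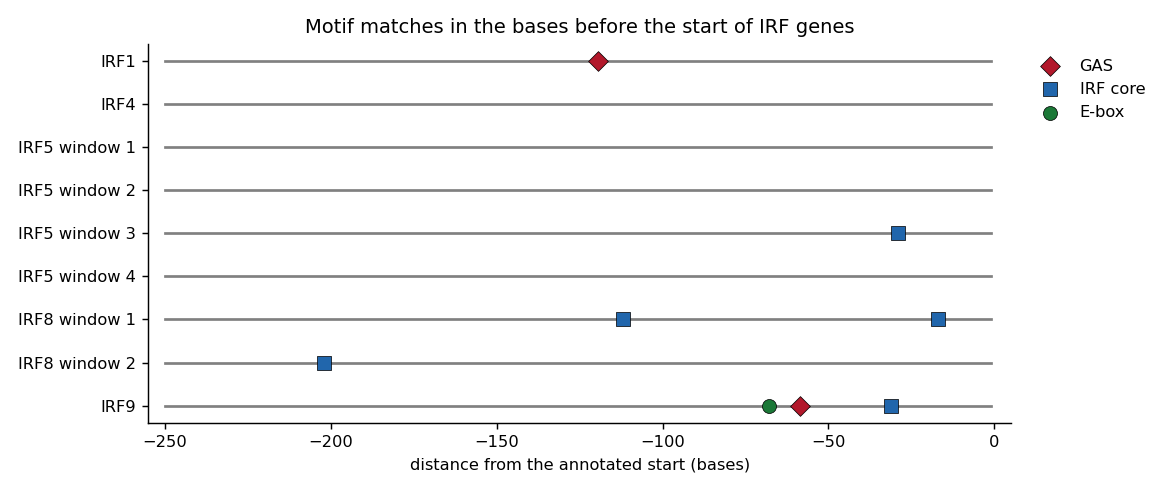
Position of motif matches in the 250 bases before each annotated start, with distance from the start in bases on the horizontal axis and a line per window for the 5 IRF genes with an entry. GAS matches lie in IRF1 and IRF9, the IRF core in IRF5, IRF8 and IRF9, and the E-box in IRF9, while the ISRE core (GAAANNGAAA) has no match and no symbol.

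Across the family the levels fell into a group of 5 genes whose mean reached 2 TPM in 1 condition or more (IRF1, IRF2, IRF3, IRF4 and IRF9) and a group of 3 below it (IRF5, IRF7 and IRF8). The 5 were tested with limma on log2(TPM + 1) together with all 12773 gene IDs that passed the same minimum. In siCTRL cells the order of mean TPM was IRF3 (25.1), IRF2 (18.3), IRF4 (13.4), IRF9 (7.93) and IRF1 (2.49), and no library of any of these genes overlapped with a library of its neighbour. In siMITF cells it was IRF3 (29.2), IRF2 (18.0), IRF9 (4.51), IRF1 (3.08) and IRF4 (1.34), again with neighbours apart. With IFNγ the order turned over. In siCTRL + IFNγ cells IRF1 stood highest (88.0 ± 12.8 TPM, SD, n = 3), followed by IRF9 (41.2 ± 3.19), IRF4 (31.5 ± 3.10), IRF2 (30.6 ± 2.29) and IRF3 (28.2 ± 1.55), and the ranges of IRF4, IRF2 and IRF3 overlapped. In siMITF + IFNγ cells IRF1 was again highest (155 ± 19.1 TPM), the means of IRF9, IRF3 and IRF2 lay between 33.5 and 38.9 TPM with overlap of IRF3 and IRF2, and IRF4 was lowest of the 5 at 6.08 ± 0.391 TPM. A second gene ID, for which the annotation gave no symbol, held values identical to those of IRF9 in all 12 libraries. The place of IRF9 in any order of levels is therefore uncertain, while the ratios of its mean TPM between conditions do not depend on an equal split between both IDs. Its log2 differences, to which 1 TPM is added, do depend on it slightly, and with a pseudocount of 0.5, which equals a doubled level, they were 2.31 and 2.98 with IFNγ and 0.67 for the interaction (adjusted p = 0.04, limma), against 2.24, 2.86 and 0.61.

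**Figure D2:**
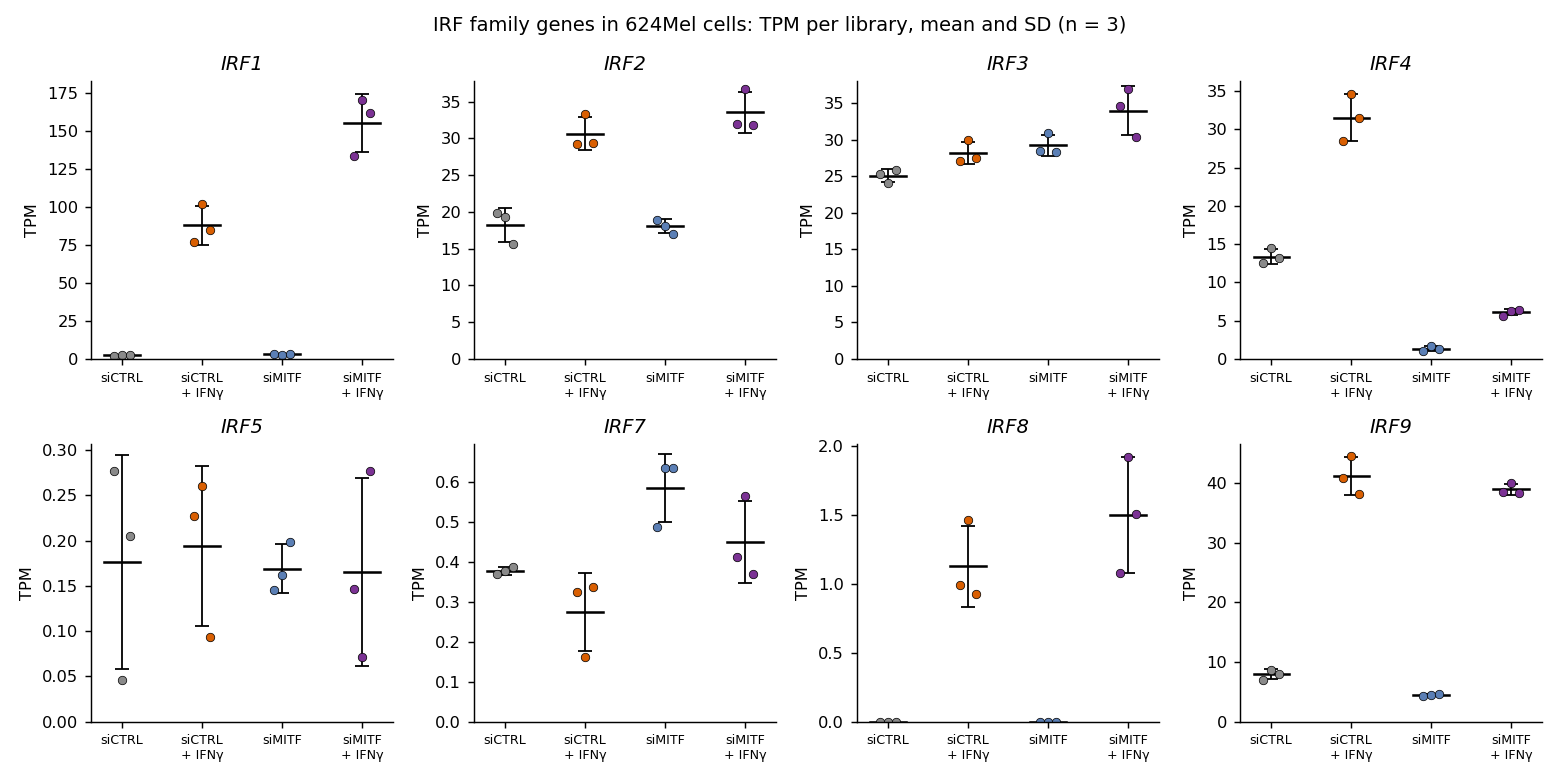
TPM of the 8 IRF genes in each library (points), with the mean (horizontal bar) and SD (error bar) of the 3 libraries per condition, on a linear vertical axis starting at 0 and scaled per gene. IRF1 climbs from 2.49 to 88.0 TPM with IFNγ in siCTRL cells and from 3.08 to 155 TPM in siMITF cells, while IRF4 is lower in both siMITF conditions.

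The question behind the comparisons was how IFNγ acts on melanoma cells in which MITF, and with it the expression of melanocytic markers, was lowered but not lost. With IFNγ in siCTRL cells 4 of the 5 tested members rose (IRF1, IRF2, IRF4 and IRF9), none fell, and IRF3 did not pass. Over all tested genes 6.80% passed as higher and 6.14% as lower. The median log2 difference of the 5 members was 1.18, against -0.07 over all tested genes. In siMITF cells the same 4 members rose and none fell, against 7.99% of all tested genes higher and 12.2% lower, with a median of 1.60 over the 5 against -0.10 over all. With the added requirement of a log2 fold change of 1 or more in size, IRF1, IRF4 and IRF9 counted as changed in both backgrounds (3 of 5 each), beside 2.52% of all tested genes in siCTRL and 2.95% in siMITF cells.

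With siMITF alone 2 of the 5 members fell (IRF4 and IRF9) and none rose, while 21.0% of all tested genes passed as higher and 13.8% as lower. Under IFNγ, siMITF cells had higher IRF1 and IRF3 and lower IRF4 than siCTRL cells (2 higher and 1 lower of 5), against 18.4% higher and 14.7% lower over all genes. IRF4 alone counted as changed by the fold requirement in each of these comparisons (1 of 5), beside 6.10% of all tested genes without and 5.68% with IFNγ. The IFNγ effect itself differed between siMITF and siCTRL cells for 1 of the 5, IRF9, against 0.947% of all tested genes (limma interaction, adjusted p = 0.0448). In siMITF + IFNγ against siCTRL cells 4 members were higher and IRF4 was lower, beside 21.1% and 23.4% of all tested genes. These comparisons share libraries with each other, so their values are given side by side and no overlap between them is read as a result. With 3 libraries against 3, an exact permutation test of a single gene cannot go below p = 0.1, so all p-values come from limma's fit across genes with Benjamini-Hochberg adjustment.

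**Figure D3:**
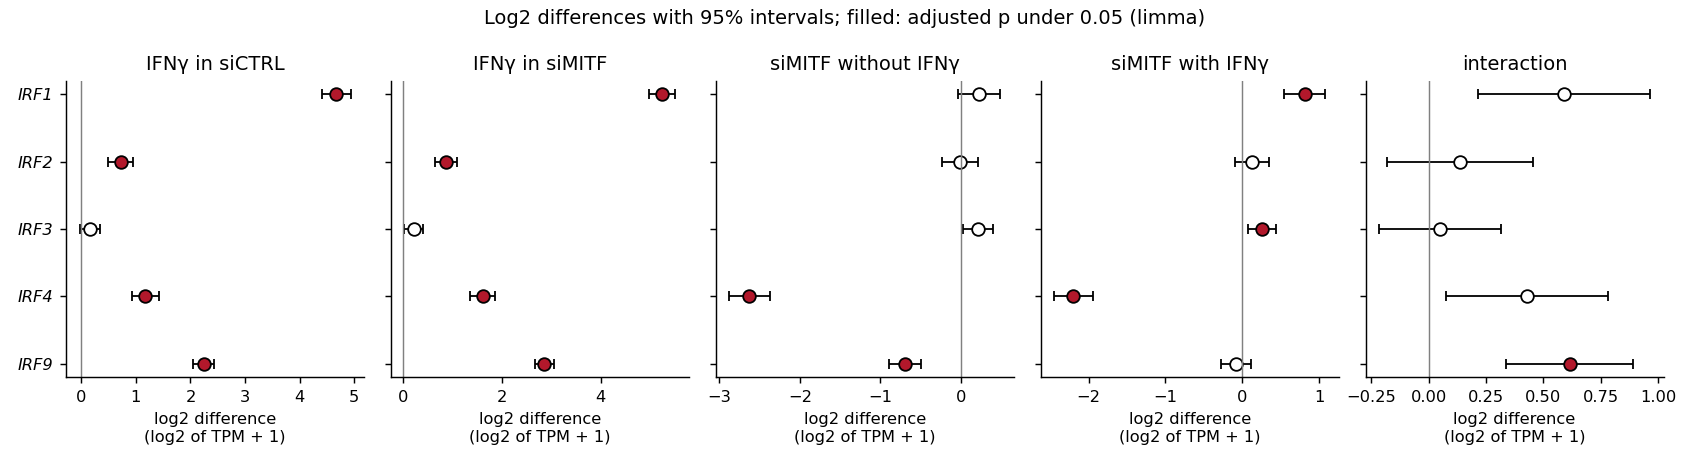
Log2 differences of the 5 tested members (horizontal axis, on the log2 of TPM + 1 scale, own range per panel) with 95% confidence intervals for the 4 comparisons and the interaction. Filled points passed an adjusted p of 0.05. IRF1, IRF2, IRF4 and IRF9 are filled in both IFNγ panels, and IRF9 is the filled point of the interaction panel.

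IRF1, the activator that IFNγ induces most directly, was almost silent without cytokine. Its libraries gave 2.31, 2.83 and 2.33 TPM in siCTRL and 3.35, 2.87 and 3.01 TPM in siMITF cells. With IFNγ they gave 76.8, 102 and 85.1 TPM in siCTRL and 133.8, 170.2 and 161.8 TPM in siMITF cells. Every IFNγ library stood far above every untreated library, and every siMITF + IFNγ library stood above every siCTRL + IFNγ library. The ratio of means was 35.3 in siCTRL and 50.5 in siMITF cells, and the log2 differences, which understate folds of low genes because 1 TPM is added, were 4.66 (SE 0.12, adjusted p = 2.19e-11, limma) and 5.26 (SE 0.12, adjusted p = 5.17e-12).

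The siMITF effect on IRF1 passed the test in the presence of the cytokine and not in its absence. Without IFNγ the log2 difference was 0.23 (95% interval -0.04 to 0.49, adjusted p = 0.179, limma), and with IFNγ it was 0.82 (0.55 to 1.08, adjusted p = 0.000228), a mean 1.77 times that of siCTRL + IFNγ cells. The rise with IFNγ was 85.5 TPM in siCTRL and 152 TPM in siMITF cells, and the combination reached 155 TPM where the sum of the single effects was 88.5 TPM. The difference between both log2 responses was 0.59 (SE 0.17, 95% interval 0.22 to 0.96) and did not pass adjustment over all genes (adjusted p = 0.21, limma). That call turned on the scaling of the libraries, since the adjusted p was 0.00888 with libraries centred on their median, 0.00433 with quantile normalization, and 0.0493 with mitochondrial genes left out of the TPM. Part of the annotated IRF1 exons (22.9% of their bases) overlaps the antisense gene IRF1-AS1, not analysed here, and a further 3.96% a protein-coding gene on the opposite strand that lay at 0.441 to 2.49 TPM. The library kit does not mark strand, so reads of opposite strands in these stretches cannot be told apart.

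IRF2, the factor that competes with IRF1, moved in the same direction but far less. Its libraries gave 19.8, 19.4 and 15.6 TPM in siCTRL, 29.3, 33.3 and 29.4 in siCTRL + IFNγ, 18.9, 18.2 and 17.1 in siMITF and 32.0, 36.7 and 31.9 in siMITF + IFNγ cells. The treated and untreated libraries did not overlap, whereas siMITF and siCTRL libraries did. The log2 difference with IFNγ was 0.72 (SE 0.10, adjusted p = 0.000418, limma) in siCTRL and 0.86 (SE 0.10, adjusted p = 7.23e-05) in siMITF cells. For siMITF it was -0.01 without IFNγ (95% interval -0.23 to 0.21) and 0.13 with IFNγ (-0.10 to 0.35), with adjusted p = 0.949 and 0.387.

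The balance between both genes within a library shifted. The TPM ratio of IRF1 to IRF2 was 0.137 ± 0.0179 (SD, n = 3) in siCTRL and 0.171 ± 0.0106 in siMITF cells. With IFNγ it was 2.86 ± 0.222 in siCTRL and 4.63 ± 0.450 in siMITF cells. IRF2 exceeded IRF1 in each of the 6 untreated libraries and IRF1 exceeded IRF2 in each of the 6 treated libraries. The ratios of the siCTRL + IFNγ libraries ended at 3.06 and those of the siMITF + IFNγ libraries began at 4.18.

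**Figure D4:**
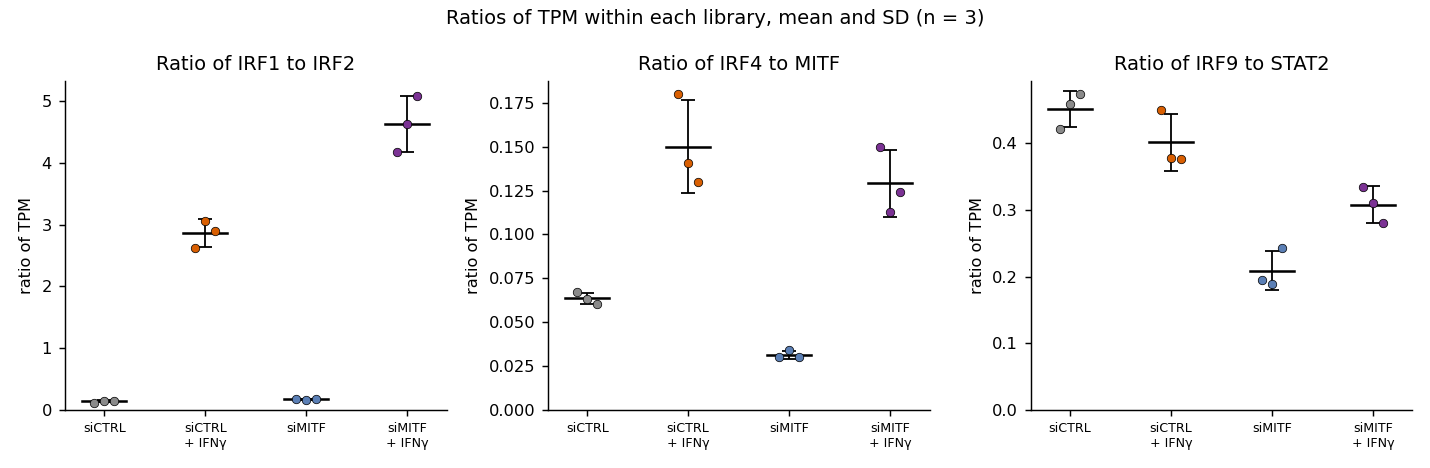
Ratios of TPM within each library (points), with the mean and SD of 3 libraries per condition, on linear vertical axes from 0. The IRF1 to IRF2 ratio is above 1 in the IFNγ libraries and highest in siMITF + IFNγ cells (4.63), the IRF4 to MITF ratio is higher with IFNγ in both backgrounds, and the IRF9 to STAT2 ratio is lowest in siMITF cells (0.209).

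IRF9, the DNA-binding subunit of ISGF3, gave 7.07, 8.72 and 7.99 TPM in siCTRL and 4.385, 4.47 and 4.67 TPM in siMITF cells. With IFNγ it gave 40.9, 44.6 and 38.2 TPM in siCTRL and 38.4, 40.05 and 38.3 TPM in siMITF cells. The siMITF libraries lay below all siCTRL libraries without IFNγ, and both sets overlapped with it. IRF9 fell with siMITF in the absence of IFNγ (log2 difference -0.69, SE 0.09, adjusted p = 6.97e-05, limma), and with IFNγ the difference was -0.08 (95% interval -0.27 to 0.12, adjusted p = 0.549). The IFNγ response was 2.24 (SE 0.09, adjusted p = 1.35e-09) from the higher start in siCTRL and 2.86 (SE 0.09, adjusted p = 8.93e-11) from the lower start in siMITF cells.

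The interaction of IRF9 was 0.61 (SE 0.13, 95% interval 0.34 to 0.89, adjusted p = 0.0448, limma). On the TPM scale the rises were 33.3 TPM in siCTRL and 34.4 TPM in siMITF cells. The interaction did not pass when genes had to average 5 TPM over all libraries (adjusted p = 0.0685), nor in 10 of the 12 fits that left out 1 library each (adjusted p up to 0.153), the exceptions being those without siCTRL replicate 1 or siCTRL + IFNγ replicate 2. With the replicate block the adjusted p was 0.0113.

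STAT2, a partner of IRF9 in ISGF3, rose with IFNγ as well, with a log2 difference of 2.49 in siCTRL and in siMITF cells (adjusted p = 3.92e-09 and 3.3e-09, limma). The TPM ratio of IRF9 to STAT2 was 0.451 ± 0.0274 (SD, n = 3) in siCTRL and 0.209 ± 0.0296 in siMITF cells. With IFNγ it was 0.401 ± 0.0427 in siCTRL and 0.308 ± 0.0273 in siMITF cells, the ranges of siCTRL and siMITF libraries staying apart in both states. The second ID with identical values bears on the height of these ratios. A protein-coding gene on the same strand that overlaps 23.9% of the annotated IRF9 exon bases lay at 0.181 to 0.555 TPM.

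IRF4, the member expressed in melanocytes, rose with IFNγ and fell with siMITF. It gave 12.5, 14.5 and 13.1 TPM in siCTRL, 28.4, 34.6 and 31.5 in siCTRL + IFNγ, 1.075, 1.69 and 1.25 in siMITF and 5.63, 6.22 and 6.375 in siMITF + IFNγ cells. The 4 conditions did not overlap in any pair. IRF4 fell with siMITF by 2.63 on the log2 scale without IFNγ (SE 0.12, adjusted p = 5.89e-09, limma) and by 2.20 with IFNγ (adjusted p = 2.98e-08), while the siCTRL mean was 9.995 times and the siCTRL + IFNγ mean 5.19 times that of the matching siMITF cells. It rose with IFNγ by 1.18 in siCTRL (adjusted p = 1.23e-05) and by 1.60 in siMITF cells (adjusted p = 4.54e-07).

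The IFNγ response of IRF4 read differently on each scale. The mean rose by 18.1 TPM in siCTRL and by 4.74 TPM in siMITF cells, yet the ratio of means was 2.36 in siCTRL and 4.54 in siMITF cells. The interaction was 0.43 (95% interval 0.08 to 0.78, adjusted p = 0.464, limma). Since IRF4 was near 1 TPM in siMITF cells, the value depended on the added constant, and with a pseudocount of 0.1 it was 0.89 (adjusted p = 0.111). With libraries centred on their median it passed narrowly (adjusted p = 0.0499). Cells with both treatments held IRF4 at 6.08 TPM, below the 13.4 TPM of siCTRL cells (log2 difference -1.02, adjusted p = 1.45e-05), where the sum of the single effects was 19.5 TPM.

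MITF itself did not pass with IFNγ (log2 difference 0.01 in siCTRL and 0.16 in siMITF cells, adjusted p = 0.984 and 0.569, limma). The TPM ratio of IRF4 to MITF was 0.0635 ± 0.003255 (SD, n = 3) in siCTRL, 0.150 ± 0.0265 in siCTRL + IFNγ and 0.0313 ± 0.00231 in siMITF cells, and 0.129 ± 0.0190 with both treatments. IRF4 was lower relative to the remaining MITF in untreated siMITF cells, with no overlap, while both IFNγ conditions overlapped. TYR, the tyrosinase gene at which IRF4 and MITF are known to act together, fell by 0.71 with siMITF alone (adjusted p = 2.29e-05) and by 0.46 under IFNγ (adjusted p = 0.000865), and it rose with IFNγ by 0.42 in siMITF cells (adjusted p = 0.00295). In siCTRL cells TYR differed by 0.16 with IFNγ (adjusted p = 0.223). TFAP2A, the AP-2α transcription factor gene of melanocytes, fell with siMITF by 0.26 without and by 0.79 with IFNγ (adjusted p = 0.0214 and 8.55e-06) and rose with IFNγ by 0.86 in siCTRL and by 0.33 in siMITF cells (adjusted p = 7.7e-06 and 0.0123).

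IRF3, which is held ready in the cytoplasm and activated by phosphorylation, had the smallest range of levels among the 5 tested genes. Its libraries gave 25.3, 24.15 and 25.9 TPM in siCTRL, 27.1, 29.9 and 27.5 in siCTRL + IFNγ, 28.5, 30.9 and 28.3 in siMITF and 34.6, 37.0 and 30.3 in siMITF + IFNγ cells. The siCTRL libraries lay below all others, and siMITF and siMITF + IFNγ libraries overlapped. Under IFNγ IRF3 was higher in siMITF cells by 0.26 (SE 0.09, adjusted p = 0.0353, limma), while the other 3 differences lay between 0.16 and 0.21 with adjusted p of 0.271 (IFNγ in siCTRL), 0.11 (IFNγ in siMITF) and 0.0776 (siMITF alone). Pairing libraries by replicate number gave 0.0465 for IFNγ in siMITF cells and 0.0347 for siMITF alone. The call under IFNγ was lost in 10 alternative settings, with adjusted p up to 0.153, among them the fits without siCTRL replicate 1 or 3, siCTRL + IFNγ replicate 1 or 3, siMITF replicate 1, and siMITF + IFNγ replicate 1 or 2. IRF3 shares 19.3% of its exon bases with BCL2L12 on the opposite strand, which lay at 28.8 to 51.7 TPM, so reads in that stretch cannot be told apart without strand.

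The remaining members stayed under the minimum for testing. IRF8, a factor of myeloid and B cells, was listed at 0 in all 6 libraries without IFNγ. With IFNγ it gave 0.992, 1.47 and 0.9305 TPM in siCTRL and 1.079, 1.92 and 1.51 TPM in siMITF cells. Every IFNγ library held a value and no untreated library did, and siCTRL and siMITF libraries overlapped. Fitted without the filter on low values, IRF8 passed for IFNγ in siCTRL (adjusted p = 5e-04, limma) and in siMITF cells (adjusted p = 0.000101), and no fold is given against values listed at 0. The 8 immune cell markers, summed without CD68, lay at 3.14 to 3.24 TPM in siCTRL and 2.14 to 2.61 in siCTRL + IFNγ, and at 4.81 to 5.57 in siMITF and 3.97 to 4.52 TPM in siMITF + IFNγ cells. That sum was mostly LYZ, the lysozyme gene, and the other 6 markers together lay at 0.624 to 0.894 TPM in siCTRL and 0.824 to 1.007 in siCTRL + IFNγ, and at 0.349 to 0.611 in siMITF and 0.997 to 1.395 TPM in siMITF + IFNγ cells, which is the opposite direction. PTPRC, the pan-leukocyte gene, lay at 0.200 to 0.226 TPM in siCTRL and 0.144 to 0.186 in siMITF cells, and at 0.224 to 0.391 and 0.515 to 0.732 TPM with IFNγ, with overlap in siCTRL cells. The 6 markers did not all move alike. Mean CD14 went from 0.237 to 0.175 TPM with IFNγ in siCTRL cells and from 0.102 to 0.205 TPM in siMITF cells. The part of these markers in the result was not tested.

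IRF7, which amplifies type I interferon production in many cells, gave 0.369, 0.376 and 0.388 TPM in siCTRL, 0.325, 0.162 and 0.338 in siCTRL + IFNγ, 0.488, 0.635 and 0.634 in siMITF and 0.413, 0.565 and 0.3695 in siMITF + IFNγ cells. The siMITF libraries lay above the siCTRL libraries, and the 3 siCTRL + IFNγ libraries lay below the siCTRL libraries. Without the filter its lowest adjusted p was 0.0776, for siMITF alone. IRF5, which acts downstream of Toll-like receptors, ranged from 0.0460 to 0.277 TPM with overlap in every comparison. The table held 4653 gene IDs without a symbol, so further IDs of a member, if any, were not counted with it.

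Upstream of the family, 3 of 9 receptor, kinase and STAT genes rose with IFNγ in siCTRL and in siMITF cells (STAT2, STAT3 and the type I receptor chain IFNAR2) and none fell, beside 6.80% and 7.99% of all tested genes higher. The median of the list was 0.10 in siCTRL and 0.21 in siMITF cells, against -0.07 and -0.10 over all tested genes. IFNAR2 had a log2 difference of 1.02 in siCTRL and 1.08 in siMITF cells (adjusted p = 2.52e-06 and 1.33e-06, limma), whereas IFNGR1, the ligand-binding chain of the IFNγ receptor, differed by -0.06 and -0.11 (adjusted p = 0.762 and 0.486). With siMITF, STAT3 was higher without IFNγ by 0.50 (adjusted p = 0.0419), the kinase gene TYK2 fell by 0.33 in the presence of IFNγ (adjusted p = 0.0423), and the other members of the list did not pass in either comparison. Both of these calls were lost without the minimum level for testing (adjusted p = 0.116 for STAT3 and 0.0812 for TYK2). None of the 9 passed for the interaction.

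Of the 12 genes that activate IRF3, IRF5 or IRF7, 11 were tested, and STING1, the adaptor for cytosolic DNA, was the one that rose with IFNγ (1.25 in siCTRL and 0.83 in siMITF cells, adjusted p = 4.95e-06 and 0.000194, limma). That is 1 of 11 in each background, near the 6.80% and 7.99% of all tested genes that passed as higher. With siMITF alone 4 rose, namely STING1 (0.64), MAVS (0.51), IKBKE (0.54) and IRAK1 (0.84), beside 21.0% of all tested genes higher. Of these MAVS and IKBKE also passed under IFNγ (2 of 11), near the 18.4% of all tested genes higher there. MYD88, the adaptor of most Toll-like receptors, lay at 0.0423 to 0.226 TPM and was not tested. Of 8 interferon genes, IFNB1, IFNA1, IFNG, IFNL1, IFNL2 and IFNL3 were listed at 0 in all libraries, and IFNE and IFNK did not exceed 0.0295 TPM.

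Among 9 partners and regulators of IRF proteins, 7 were tested. BATF, BATF2, BATF3 and the IRF-binding ubiquitin ligase TRIM21 rose with IFNγ in both backgrounds, and none of the 7 fell. BATF and BATF2 reached the minimum for testing in IFNγ conditions alone, so their rise was partly set by entry to the test. Over all tested genes 6.80% passed as higher in siCTRL and 7.99% in siMITF cells. BATF2, a partner of IRF1 in macrophages, had the largest difference of the list, from 0.290 to 84.0 TPM in siCTRL and from 0.296 to 79.9 TPM in siMITF cells. BATF, a partner of IRF4 and IRF8 in lymphocytes, fell with siMITF by 0.96 without and by 1.08 with IFNγ (adjusted p = 4.2e-05 and 1.73e-05, limma). BATF3 was higher in siMITF cells under IFNγ (0.55, adjusted p = 0.00974), and TRIM21 fell by 0.58 with siMITF alone (adjusted p = 0.000531). The co-repressor genes IRF2BP1, IRF2BP2 and IRF2BPL did not pass with IFNγ in either background (-0.20 to 0.10), and IRF2BP1 was higher with siMITF alone (0.38, adjusted p = 0.0208). SPI1 and SPIB, the lymphoid and myeloid partners of IRF4 and IRF8, did not exceed 0.647 TPM.

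Downstream, 10 genes known as IRF1 targets and 10 known as ISGF3 targets were followed, with none in both lists. With IFNγ all 10 IRF1 targets rose in siCTRL and in siMITF cells, with medians of 2.05 and 3.19, and 9 of the 10 ISGF3 targets rose, with medians of 3.35 and 3.46. MX1 was the exception (-0.12 and -0.30, adjusted p = 0.567 and 0.0997, limma). Over all tested genes 6.80% passed as higher in siCTRL and 7.99% in siMITF cells, with medians of -0.07 and -0.10. Of the IRF1 targets, IDO1, CASP1, TNFSF10, PSMB9, IL15, CIITA and CD274 reached a mean of 2 TPM in IFNγ conditions alone. The ISGF3 targets OAS2, IFI44L and IFIT2 did so too. For these genes a rise with IFNγ was partly set by entry to the test. Without the minimum level the counts were also 10 and 9 in both backgrounds. Both lists were chosen with earlier results of these data known. Each gene was placed in 1 list, and binding by either factor was not measured, so the lists do not separate the action of both. IDO1, which degrades tryptophan, had the largest difference among the IRF1 targets (6.43 in siCTRL and 6.73 in siMITF cells), and ISG15, a ubiquitin-like modifier, the largest among the ISGF3 targets in siCTRL cells (5.10).

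Under IFNγ the counts of siMITF against siCTRL cells were as follows. Of the IRF1 targets 8 were higher in siMITF + IFNγ cells and IL15 was lower, beside 18.4% of all tested genes higher and 14.7% lower, with a list median of 0.74 against 0.03 over all tested genes. Of the ISGF3 targets OAS2 and IFI44L were higher and IFIT1, IFIT3, IFI6 and USP18 lower (2 and 4 of 10), with a median of -0.30. Without the minimum level for testing the counts were 7 higher and 1 lower for the IRF1 targets, as CD274 was lost (adjusted p = 0.0561, limma), and 1 higher and 4 lower for the ISGF3 targets, as IFI44L was lost (adjusted p = 0.067). GBP2, an interferon-induced GTPase, lay at 101, 104 and 96.3 TPM in siCTRL + IFNγ and at 261, 202 and 192 TPM in siMITF + IFNγ cells, with no overlap (difference 1.10, adjusted p = 3.7e-05, limma). IFIT1, which binds foreign RNA, lay at 21.7, 22.15 and 20.3 TPM in siCTRL + IFNγ and at 9.095, 6.448 and 6.92 TPM in siMITF + IFNγ cells, again without overlap (difference -1.41, adjusted p = 1.98e-06).

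The interaction passed for 4 of the 10 IRF1 targets and for none of the 10 ISGF3 targets, whose lowest adjusted p was 0.0597 (IFI6), beside 0.947% of all tested genes. The 4 were CD274 (1.22, adjusted p = 0.0168, limma), which encodes PD-L1, CIITA (1.08, adjusted p = 0.042), the master regulator of MHC class II, CASP1 (1.05, adjusted p = 0.00284), the inflammatory caspase, and GBP2 (0.93, adjusted p = 0.0372). Without the minimum level for testing 1 of the 10 passed, CASP1, and the adjusted p was 0.0664 for CD274, 0.125 for CIITA and 0.0992 for GBP2. The list medians were 0.63 for IRF1 targets, -0.16 for ISGF3 targets and -0.03 for all tested genes. The added 1 TPM weighs on genes near 0 TPM without IFNγ. IDO1, PSMB9 and TNFSF10 had interactions of 0.31, 0.52 and 0.27. Yet their ratios of mean TPM with IFNγ were 5824, 64.6 and 19.9 in siCTRL and only 762, 52.9 and 14.4 in siMITF cells. For the other IRF1 targets except CASP1 both measures went the same way. No other pseudocount was tried for list genes. CD274 was lower with siMITF alone (1.61 against 0.587 TPM) and higher under IFNγ (9.27 against 13.8 TPM), with adjusted p = 0.00339 and 0.0195, the latter being the call lost without the minimum level. CIITA reached 5.78 ± 1.496 TPM in siCTRL + IFNγ and 12.4 ± 1.505 TPM in siMITF + IFNγ cells (SD, n = 3). CASP1 was listed at 0 in the 3 siCTRL libraries and at 0 to 0.0437 TPM in the siMITF libraries, so no fold with IFNγ is given. Its interaction is close to its siMITF difference under IFNγ (1.07), where its means were 1.58 TPM in siCTRL and 4.41 TPM in siMITF cells.

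**Figure D5:**
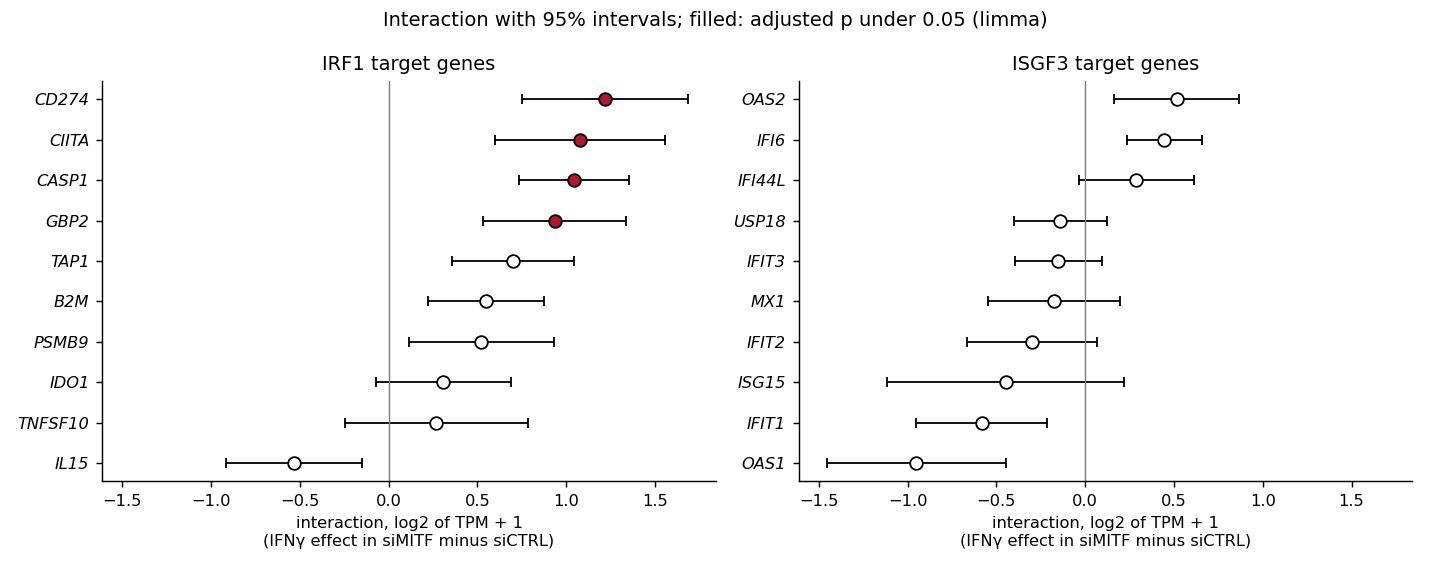
Interaction of IFNγ and siMITF (the log2 IFNγ effect in siMITF minus that in siCTRL cells, log2 of TPM + 1, horizontal axis) with 95% confidence intervals for 10 IRF1 targets and 10 ISGF3 targets, sorted by value. CD274, CIITA, CASP1 and GBP2 are filled (adjusted p under 0.05) among the IRF1 targets, and no ISGF3 target is filled. Of the filled genes, CASP1 alone also passed without the minimum level for testing, and its untreated levels lay at or near 0 TPM. For IDO1, PSMB9 and TNFSF10 the ratios of mean TPM, without the added 1 TPM, went the other way.

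The genes most like each tested member over the 12 libraries were found by Pearson correlation of log2(TPM + 1), given as a description because all genes share the same libraries and treatments. IRF1 was most like APOL4 (r = 0.999), HAPLN3 (0.999) and OAS2 (0.9985), where APOL4 had means of 0.426, 50.55, 0.662 and 85.0 TPM in the conditions siCTRL, siCTRL + IFNγ, siMITF and siMITF + IFNγ. IRF2 was most like MSRB1 (0.976), RSAD2 (0.976) and OAS2 (0.9751). OAS2, named here for both IRF1 and IRF2, is from the list of ISGF3 targets. IRF9 was most like PARP9 (0.997), TRIM21 (0.9965) and DTX3L (0.996), and PARP9 was likewise lowest in siMITF cells (10.3 TPM in siCTRL and 5.39 TPM in siMITF cells). IRF4 was most like NAT8 (0.993), SERPINF1 (0.992) and FBXO32 (0.991), and FBXO32 stood at 35.6, 46.9, 12.7 and 22.8 TPM in the order given for APOL4. IRF3 was most like LMBRD1 (0.939), PCMTD1 (0.933) and PCGF5 (0.930), the lowest correlations of the 5.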

How the data were processed

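RNA-seq of 12 libraries of 624Mel cells was used, 3 per condition, grouped by the labels. Per the labels and the study's methods, the authors used Trimmomatic 0.39 for read trimming and kallisto, against Ensembl's GRCh38 transcripts, for quantification, and deposited TPM per gene ID. The Ensembl release and the step from transcripts to genes are not given in the sources used here. Depth per library is unknown, so no counting interval or detection floor is given. The study's methods describe replicates as independent, and p-values measure the spread between these libraries.

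Gene IDs were given symbols from the reference table (35520 of 40173) and positions from GENCODE. TPM were transformed to log2(TPM + 1). limma 3.58.1 in R 4.3.3, with empirical Bayes moderation and an intensity trend, was fitted to the 12773 gene IDs whose mean reached 2 TPM in any condition, 1 coefficient per condition, with two-sided tests and Benjamini-Hochberg adjustment over all of them. A member passed with an adjusted p under 0.05, and changed if its log2 fold change was also 1 or more in size. On simulated data made from these libraries, 194 of 197 genes with a log2 change of 1.5 were recovered for IFNγ in siCTRL cells with 7 false calls, 193 of 197 with 17 for siMITF, and 184 of 198 with 16 for the interaction. No smaller change was simulated, so these rates do not cover the smaller interactions of the members. The simulated noise was drawn separately for each library, without a part shared by replicate number.

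Replicate numbers come from the titles. After subtraction of condition means, all 18 pairs of libraries that share a number correlated above 0.1 (0.102 to 0.626), and all 12 libraries correlated best with their own number, so the numbers were taken to pair the libraries and a replicate block was run as an alternative. No libraries were identical. Other settings tried were a pseudocount of 0.1 or 0.5, testing without the minimum TPM or with an average of 5 TPM across the 12 libraries, quantile normalization, libraries centred on their median, moderation without trend, a fit to the compared conditions, mean TPM as the basis of folds, a stricter adjusted p of 0.01, each library left out, and, added after seeing the data, TPM rescaled without mitochondrial genes. The genes of the lists were refitted without the minimum TPM and under no other setting, so their calls do not use the pairing of libraries. The main calls, the shares over all tested genes and the fits without 1 library do not use it either.

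The members, gene lists and tests were chosen with earlier results of these data known. Named genes were all 8 members, the list genes with the largest and smallest differences or tied by name to a member, and the 3 genes most correlated with each tested member. Genes that passed among a list were also named, some after their values were seen. Some genes, 1 of the numbered IRF series among them, are not reported here, and the counts of the lists leave them out. Promoter windows came from RefSeq (GRCh38.p14). Python 3.11.15, pandas 2.3.3, numpy 2.4.6 and matplotlib 3.10.9 were used for tables and plots.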

Additional observations from a re-analysis of the deposited data

Results flagged for a closer look

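The response of IRF9 to IFNγ differed between siMITF and siCTRL cells by a test of the difference itself (interaction 0.61 on the log2 scale, adjusted p = 0.0448, limma). IRF9 rose with IFNγ in both, by 2.86 in siMITF and by 2.24 in siCTRL cells, and the mean levels with IFNγ were 38.9 and 41.2 TPM. Without IFNγ they were 4.51 and 7.93 TPM. In TPM the rise was 34.4 in siMITF and 33.3 in siCTRL cells. The interaction lost its call in 12 of 23 alternative settings, with adjusted p up to 0.153 (limma). Mitochondrial transcripts took 12.7% to 16.9% of the TPM in siMITF + IFNγ libraries and 7.42% to 14.8% in siCTRL libraries, and with these genes left out of the TPM the interaction was 0.65 (adjusted p = 0.00532, limma).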

How the results depend on the processing

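The counts of changed members, 3, 3, 1 and 1 for the 4 comparisons, were the same under all 24 alternatives. Over members, comparisons and alternatives 587 values were recomputed, leaving out the IRF1 interaction given below. Of these 558 counted as the same, 22 lost their call, 7 gained one and 0 reversed. The 558 include the values of IRF5, IRF7 and IRF8 without the minimum level, which had no main test to be set against. Among them IRF8 passed for IFNγ in both backgrounds. Folds from mean TPM had no test and were judged by size and direction. The count of members with an interaction (1, IRF9) was 0 with an average of 5 TPM across all libraries required and with an adjusted p under 0.01, 2 with quantile normalization and with TPM rescaled without mitochondrial genes (IRF1 and IRF9), and 3 with libraries centred on their median (IRF1, IRF4 and IRF9). Leaving out each library in turn gave 0 to 1. With the replicate block, which pairs libraries by number, it was 1 (IRF9). The interaction of IRF1, 0.59 as reported, passed with quantile normalization (0.72), centring on the median (0.61) and TPM without mitochondrial genes (0.60). It was 0.59 with the replicate block (adjusted p = 0.0551, limma) and 0.50 to 0.70 without each library in turn. Beside the calls of IRF3 given above, the block changed no call of a tested member. The interaction was not fitted to the compared conditions alone, since it uses all 4. The cause of these shifts was not tested, except that an adjusted p under 0.01 is a stricter limit and that leaving out a library leaves fewer samples. TPM hold no depth, so the precision of the low levels of IRF5, IRF7 and IRF8 cannot be given.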
